A study of Mus musculus with 24 samples.

Results

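A set of 10 genes of sphingolipid and ceramide synthesis was followed in mouse liver, namely Sptlc1, Sptlc2, Sptlc3, Cers2, Cers4, Cers5, Cers6, Degs1, Smpd1, and Sgms1. They were chosen by symbol, with earlier results of these data known, and all 10 were among the 56205 genes of the deposited count table. RNA-Seq was performed on whole livers of adult C57BL/6J mice that were fed for 20 weeks either a diet high in fat from palm oil, with added fructose and cholesterol, or the matching control diet, and no other allele or agent is named for either group. Each diet had 12 libraries, made from poly(A)-selected RNA. The design comprised 6 mice of each sex per diet, but the sex of a library is not labelled, and a library is taken here as 1 animal. Of the 10 genes, 9 were detected (1 count or more) in 12 libraries or more and were tested, while Sptlc3 was below this filter.

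Sphingolipids are made de novo at the endoplasmic reticulum. Serine palmitoyltransferase (SPT) joins serine to palmitoyl-CoA, the product is reduced to sphinganine, ceramide synthases attach a fatty acid whose length depends on the synthase, and a desaturase completes ceramide. Ceramide is then passed to sphingomyelin or to glycosphingolipids, or is broken down to sphingosine and sphingosine 1-phosphate, and in liver these lipids are studied for their links to steatosis and insulin signalling.

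Libraries held between 14468418 and 22112552 counts on genes. Levels are given in CPM, the counts relative to the library total after edgeR's TMM scaling. Within each diet, replicates 1 to 6 had 2664 or more counts of Xist, a noncoding RNA of the inactive X chromosome, and replicates 7 to 12 had at most 3. These sets of 6 libraries per diet were defined by the counts and are not conditions of the study, and whatever else differs between these replicate numbers cannot be told apart from them. High-fat diet replicates 3 and 9 and control diet replicate 10 had lower correlations with the libraries of their own diet and set (median r of 0.968, 0.973, and 0.949) than the other libraries (0.981 or higher). Left out together, a choice made after seeing the data, they changed no call of a member. Alb, Apoa1, and Cyp2e1, made by hepatocytes, were abundant in every library, with means for Alb of 45200 CPM on the high-fat diet and of 74400 CPM in controls.

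Genes were called where the adjusted p was 0.01 or less and the log2 fold change exceeded 0.5 in either direction. By this rule 2 of the 9 tested members rose on the high-fat diet and 0 fell (edgeR quasi-likelihood test, Benjamini-Hochberg adjustment over 17913 genes). Over all genes tested, 13.2% were called higher and 4.99% lower. The members that rose were Sptlc2, a catalytic subunit of SPT, and Cers5, a ceramide synthase that favours palmitoyl-CoA. The median log2 fold change of the 9 members was 0.06, against -0.03 over all genes tested. Because whole liver was measured, fewer cells of a type and less RNA per cell cannot be told apart in any of these values. At an unadjusted p under 0.05, 1 member had a negative log2 fold change by edgeR, Sptlc1 (p = 0.02), and DESeq2 and limma-voom likewise called 0 members lower.

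The start regions of the members that rose and of a partner of each that was not called are shown, since the contrasts within these pairs carry the main result. They were taken from RefSeq (GRCm38.p6), cover 250 bases before to 50 bases after the annotated start, and are written 5′ to 3′ on the gene's strand. The window of Sptlc2 is chr12:87388306-87388605 (minus strand), that of Sptlc1 chr13:53377312-53377611 (minus strand), that of Cers5 chr15:99772466-99772765 (minus strand), and that of the upstream start of Cers2 chr3:95314940-95315239 (plus strand). Capitals mark matches on either strand to the GC box (GGGCGG), the CCAAT box (CCAAT), and the E-box (CACGTG), which do not overlap each other here.
Sptlc2: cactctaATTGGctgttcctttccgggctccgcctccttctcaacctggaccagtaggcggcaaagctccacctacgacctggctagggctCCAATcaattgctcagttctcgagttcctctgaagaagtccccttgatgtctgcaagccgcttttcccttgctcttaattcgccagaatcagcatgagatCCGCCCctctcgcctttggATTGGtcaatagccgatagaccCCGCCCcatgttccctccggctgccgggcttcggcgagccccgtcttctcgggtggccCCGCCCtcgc
Sptlc1: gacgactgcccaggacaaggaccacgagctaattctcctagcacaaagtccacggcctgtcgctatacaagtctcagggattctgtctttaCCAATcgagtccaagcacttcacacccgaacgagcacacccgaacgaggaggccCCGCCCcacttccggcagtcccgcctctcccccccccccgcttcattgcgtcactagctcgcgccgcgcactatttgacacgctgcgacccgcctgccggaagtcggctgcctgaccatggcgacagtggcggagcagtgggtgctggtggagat
Cers5: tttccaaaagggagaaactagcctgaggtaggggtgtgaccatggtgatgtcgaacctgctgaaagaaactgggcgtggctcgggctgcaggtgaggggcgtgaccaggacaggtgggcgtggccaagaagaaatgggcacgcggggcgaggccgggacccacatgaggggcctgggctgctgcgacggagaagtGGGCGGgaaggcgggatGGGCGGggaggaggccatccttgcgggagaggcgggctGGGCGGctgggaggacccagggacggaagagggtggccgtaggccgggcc
Cers2: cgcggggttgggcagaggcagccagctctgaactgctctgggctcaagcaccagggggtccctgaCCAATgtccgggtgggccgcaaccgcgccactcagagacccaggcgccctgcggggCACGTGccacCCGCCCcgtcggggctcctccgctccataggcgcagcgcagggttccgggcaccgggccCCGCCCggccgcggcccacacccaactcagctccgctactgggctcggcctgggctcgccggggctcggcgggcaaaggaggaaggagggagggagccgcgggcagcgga
The Sptlc2 window held 3 GC boxes and 3 CCAAT boxes, the Sptlc1 window 1 of each, the Cers5 window 3 GC boxes and 0 CCAAT boxes, and the Cers2 window 2 GC boxes, 1 CCAAT box, and 1 E-box. Among all 32851 RefSeq start regions of this length, 35.7% held a GC box, 37.4% a CCAAT box, and 7.15% an E-box. Of the 14 start regions of the 10 members, 8 held a GC box, 6 a CCAAT box, and 3 an E-box. The GC content was 59.3% for Sptlc2, 62.3% for Sptlc1, 67.7% for Cers5, and 75.0% for Cers2, against a median of 52.7% over all start regions. The sterol regulatory element letters TCACNCCAC and the cAMP response element letters TGACGTCA, present in 1.24% and 1.79% of all regions, were not found in the 14. The AP-1 letters TGANTCA and the TATA box letters TATAAA, present in 7.81% and 13.6% of all regions, were found in 1 of the 14 each, in both cases at starts of Sgms1. Such matches describe letters only.

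SPT consists of Sptlc1 paired with either Sptlc2 or Sptlc3, and it sets the rate of the pathway. Sptlc2 (ENSMUSG00000021036, chr12:87305058-87388355 in GENCODE M21) had levels between 24.8 and 42.4 CPM (median 33.4) on the high-fat diet and between 16.2 and 23.9 CPM (median 19.1) on the control diet. All 12 high-fat diet libraries were above the highest control library, a separation that 1.89% of all genes tested reached in either direction. The change was 0.74 ± 0.0992 on the log2 scale (SE, n = 12 per diet), or 1.67-fold, with an adjusted p of 4.09e-06 by edgeR.

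The rise of Sptlc2 differed between the Xist sets. Among replicates 1 to 6 the high-fat diet libraries held 24.8 to 29.8 CPM against 16.2 to 23.9 CPM in control libraries, and among replicates 7 to 12 they held 36.9 to 42.4 CPM against 16.7 to 23.3 CPM. Thus every high-fat diet library of the second set was above every one of the first, while the control libraries of the sets overlapped. The share of all genes that separate the sets in this way on the high-fat diet was not counted. In fits within each set, the log2 fold change was 0.42 ± 0.0993 (SE, adjusted p = 0.0125 by edgeR, n = 6 per diet) where Xist was over 1000 counts and 1.05 ± 0.0966 (adjusted p = 3.11e-06) where it was under. The interaction of diet and set was -0.62 ± 0.135 on the log2 scale, as the set with Xist minus the set without it (edgeR, adjusted p = 0.00408). Sptlc2 was the 1 member of 9 at an adjusted p of at most 0.01 for this term, which 4.06% of all genes tested reached.

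Sptlc1 (ENSMUSG00000021468, chr13:53332748-53377397), the shared subunit of SPT, was at 22.4 to 28.2 CPM (median 26.2) on the high-fat diet and at 23.6 to 37.0 CPM (median 27.5) in controls. These ranges overlapped, with 3 high-fat diet libraries below the lowest control library. Its log2 fold change of -0.18 ± 0.0737 (SE) did not pass the threshold (edgeR, adjusted p = 0.0504), with a 95% interval from -0.33 to -0.04. Scaled by library totals alone, the value was 0.125, above 0, but the median of all genes then moved from -0.03 to 0.26, and relative to that median Sptlc1 was at -0.13, against -0.15 with TMM.

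Sptlc3 (ENSMUSG00000039092, chr2:139493913-139637674), the alternative catalytic subunit, had 0 counts in 20 of the 24 libraries. High-fat diet replicates 8, 11, and 12 had 4, 1, and 1 counts, and control diet replicate 11 had 7. A count of 0 still allows 3 counts, which equal between 0.118 and 0.305 CPM in these libraries, so no fold change is given and expression below this level was not detectable at this depth.

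Because a ratio of counts within a library does not depend on the scaling, the subunits were also compared with each other. The log2 ratio of Sptlc2 to Sptlc1 counts was 0.36 ± 0.219 (SD of 12 libraries) on the high-fat diet, from -0.04 to 0.65, and -0.54 ± 0.289 on the control diet, from -1.09 to -0.08. All 12 high-fat diet libraries again stood above the highest control library. The difference of 0.90 had a two-sided permutation p of 1e-05, the smallest that 100000 resamples can give, and 5e-05 after adjustment over the 5 ratios tested. Within the sets the difference was 0.74 with Xist over 1000 counts and 1.06 with Xist under, each at the smallest exact permutation p that 6 against 6 libraries allow (0.00216). Per kilobase of exon, Sptlc2 made up 36.1% ± 3.45 (SD) of the summed level of the SPT subunits on the high-fat diet and 23.3% ± 3.53 in controls. Sptlc1 was the more abundant subunit per kilobase in all 24 libraries.

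**Figure D1:**
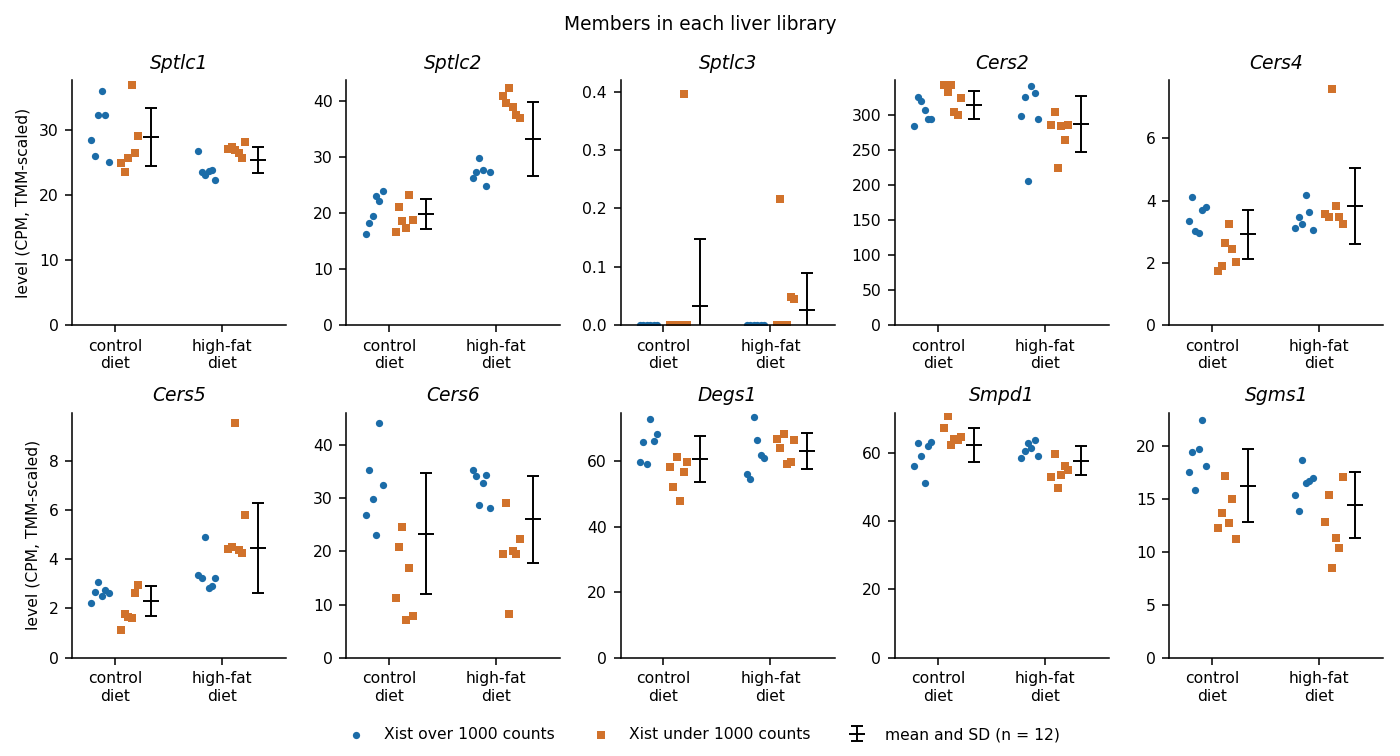
Level of each of the 10 members (CPM after TMM scaling, axes from 0) in every library of the control and the high-fat diet, with circles for libraries with over 1000 counts of Xist, squares for those with fewer, and a bar for the mean and SD of each diet (n = 12). Sptlc2 separates the diets in all 12 high-fat diet libraries, Cers5 in 10 of 12, and Sptlc3 lies at 0 in 20 of 24 libraries.

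The ceramide synthases differ in the chain length they attach. Cers2, which makes very-long-chain ceramides and is the main synthase of liver, was far above its relatives. Cers2 (ENSMUSG00000015714, chr3:95314791-95323599) was at 205.0 to 340.0 CPM (median 290.0) on the high-fat diet and at 284.0 to 342.0 CPM (median 313.0) in controls. The ranges overlapped, and the 3 high-fat diet libraries below the lowest control library included replicates 3 (205.0 CPM) and 9 (224.0 CPM), which stood apart from their group. Cers2 did not pass the threshold, at a log2 fold change of -0.13 ± 0.0763 (SE, edgeR, adjusted p = 0.177, interval from -0.28 to 0.02). With library totals alone its sign turned, at 0.155, while relative to the median of all genes it was at -0.10 with either scaling.

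Cers5 (ENSMUSG00000023021, chr15:99734881-99772885) makes ceramides with palmitate as the attached chain. It was at 2.84 to 9.55 CPM (median 4.31) on the high-fat diet and at 1.14 to 3.08 CPM (median 2.56) in controls. Of the high-fat diet libraries, 10 of 12 were above every control library. The change was 0.95 ± 0.191 on the log2 scale (SE), or 1.93-fold, with an adjusted p of 0.000369 by edgeR. The counts behind it were low, with medians per library of 85.0 for the high-fat diet and 45.5 for controls. High-fat diet replicate 9 was the highest library at 9.55 CPM, and without it the log2 fold change was 0.79 (edgeR, adjusted p = 0.000409).

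Within the sets, Cers5 was called where Xist was under 1000 counts and not where it was over. In the libraries with fewer Xist counts it ranged from 4.24 to 9.55 CPM on the high-fat diet against 1.14 to 2.96 CPM on the control diet, and in the others from 2.84 to 4.9 against 2.21 to 3.08 CPM. The log2 fold changes were 1.499 ± 0.27 (SE, adjusted p = 0.00061 by edgeR) and 0.38 ± 0.166 (adjusted p = 0.148). The difference between the sets, -1.11 ± 0.314 on the log2 scale, had an adjusted p of 0.0231 by edgeR and so missed the threshold of 0.01. With Xist under 1000 counts, 2 of the 9 members were called higher, Sptlc2 and Cers5, against 14.3% of all genes, and with Xist over 1000 counts 0 were, against 2.91%. In the latter set Sptlc2 and Cers5, with positive log2 fold changes, and Sptlc1, with a negative one, had an unadjusted p under 0.05 by edgeR. The diets did not overlap for Sptlc2, Cers5, and Smpd1 among the libraries with few Xist counts, where 22.3% of genes showed this, and for Sptlc2 alone among the others, where 5.9% did.

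Cers6 (ENSMUSG00000027035, chr2:68861441-69114282), the other synthase that favours palmitoyl-CoA, varied more between libraries than between diets. It was at 8.12 to 35.3 CPM (median 28.5) on the high-fat diet and at 7.03 to 44.3 CPM (median 23.9) in controls. The change was 0.15 ± 0.253 on the log2 scale (SE, edgeR, adjusted p = 0.667), and its interval from -0.35 to 0.65 includes changes as large as the threshold. The sets differed instead. On the control diet Cers6 was at 23.1 to 44.3 CPM in libraries with many Xist counts and at 7.03 to 24.7 CPM in the others, and on the high-fat diet at 28.2 to 35.3 and 8.12 to 29.1 CPM. Over both diets the set with Xist was higher by 0.91 ± 0.185 on the log2 scale (SE, edgeR, adjusted p = 0.0013). This was the 1 member of 9 called between the sets, a call made for 4.58% of all genes. The control libraries alone gave 1.11 ± 0.26 (edgeR, adjusted p = 0.00499).

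Cers4 (ENSMUSG00000008206, chr8:4493026-4531680), a synthase of long and very long chains, was the lowest of the tested members per kilobase. Its range was 3.06 to 7.57 CPM (median 3.47) on the high-fat diet and 1.73 to 4.11 CPM (median 2.99) in controls. The diets overlapped, and high-fat diet replicate 9 was again the highest library, at 7.57 CPM. The log2 fold change of 0.39 ± 0.162 (SE) was not called (edgeR, adjusted p = 0.0553, interval from 0.075 to 0.71). Without replicate 9 it was 0.26, and with library totals alone it was 0.70 and passed the threshold (adjusted p = 0.00481 by edgeR). Within the sets it was -0.01 ± 0.145 with Xist over 1000 counts and 0.88 ± 0.243 with Xist under, with adjusted p of 0.984 and 0.0108 by edgeR and 0.0427 for their difference.

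Between the synthases, the log2 ratio of Cers5 to Cers2 counts rose with the high-fat diet and that of Cers6 to Cers2 did not pass its test. Cers5 to Cers2 was at -6.07 ± 0.668 (SD of 12 libraries) on the high-fat diet and -7.12 ± 0.48 in controls, a difference of 1.05 with a permutation p of 7e-05, or 0.000175 after adjustment over the 5 ratios. The ratio was above the highest control library in 10 of 12 high-fat diet libraries, and within the sets the difference was 0.39 (exact permutation p = 0.0519) with Xist over 1000 counts and 1.71 (exact permutation p = 0.00216) with Xist under. Cers6 to Cers2 was at -3.54 ± 0.501 against -3.94 ± 0.878, a difference of 0.40 with a permutation p of 0.18, adjusted 0.225. Per kilobase of exon, Cers2 made up 94.5% ± 0.959 (SD) of the summed level of the 4 synthases on the high-fat diet and 96.0% ± 1.64 in controls. Cers5 made up 1.61% ± 0.91 and 0.736% ± 0.204, and Cers6 3.53% ± 1.03 and 2.97% ± 1.48. Cers5 thus rose at a level far under that of Cers2.

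**Figure D2:**
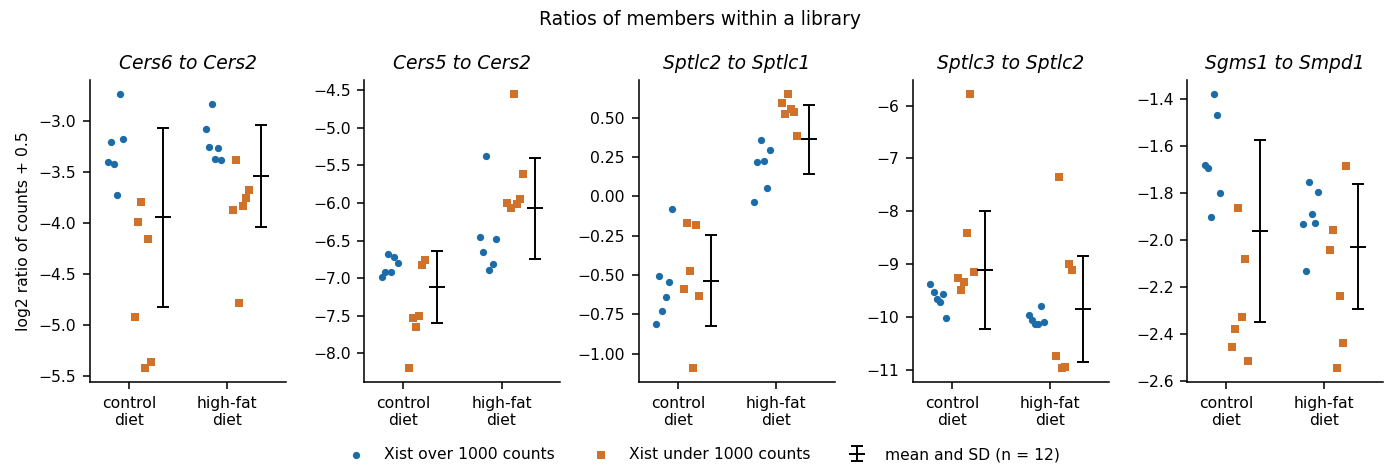
Log2 ratio of counts (each count plus 0.5) of pairs of members within a library, for the control and the high-fat diet, with circles and squares for libraries with over and under 1000 counts of Xist and a bar for the mean and SD of each diet (n = 12). The Sptlc2 to Sptlc1 ratio separates the diets in all 12 high-fat diet libraries and the Cers5 to Cers2 ratio in 10, while the other 3 ratios overlap.

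Degs1 (ENSMUSG00000038633, chr1:182275772-182282804), the desaturase that turns dihydroceramide into ceramide, was at 54.5 to 73.5 CPM (median 62.9) on the high-fat diet and at 47.7 to 73.0 CPM (median 59.8) in controls. The ranges overlapped nearly in full. Its log2 fold change was 0.06 ± 0.0667 (SE, edgeR, adjusted p = 0.515), and the interval from -0.07 to 0.19 lies inside the fold threshold on both sides. Without the 3 libraries that stood apart the value was -0.01.

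Sgms1 and Smpd1 act in opposite directions on sphingomyelin. Sgms1 (ENSMUSG00000040451, chr19:32122727-32389714), which makes sphingomyelin from ceramide in the Golgi, was at 8.45 to 18.6 CPM (median 15.3) on the high-fat diet and at 11.2 to 22.4 CPM (median 16.4) in controls. The change was -0.17 ± 0.126 on the log2 scale (SE, edgeR, adjusted p = 0.287, interval from -0.42 to 0.07), with 2 high-fat diet libraries below every control library. Over both diets its level was higher by 0.42 ± 0.097 on the log2 scale in libraries with many Xist counts (edgeR, adjusted p = 0.00412), which is under the fold threshold.

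Smpd1 (ENSMUSG00000037049, chr7:105554360-105558389), the acid sphingomyelinase that releases ceramide in lysosomes, was at 49.5 to 63.7 CPM (median 58.7) on the high-fat diet and at 51.2 to 70.6 CPM (median 63.0) in controls. These overlapping ranges gave a log2 fold change of -0.11 ± 0.0567 (SE, edgeR, adjusted p = 0.129, interval from -0.22 to 0.002). Among the libraries with few Xist counts all 6 high-fat diet libraries, at 49.5 to 59.7 CPM, were below the 6 control libraries, at 62.3 to 70.6 CPM, a log2 difference of -0.25 ± 0.0779 (edgeR, adjusted p = 0.0211). Where Xist was over 1000 counts the value was 0.05 ± 0.0752, and the interaction of 0.31 ± 0.0976 had an adjusted p of 0.0408 by edgeR. The log2 ratio of Sgms1 to Smpd1 was -2.03 ± 0.267 (SD) on the high-fat diet and -1.96 ± 0.387 in controls, a difference of -0.07 (permutation p = 0.623).

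**Figure D3:**
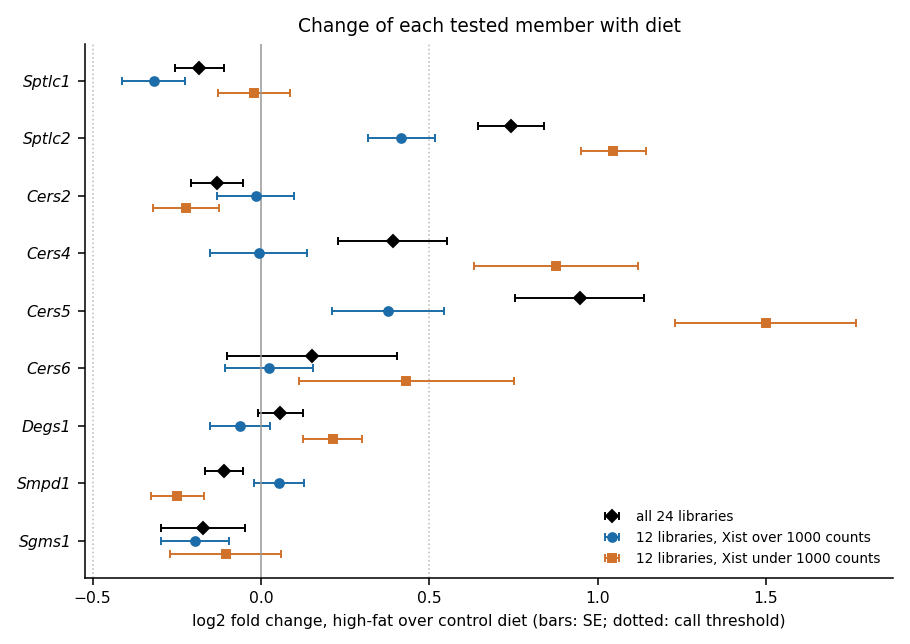
Log2 fold change of the high-fat over the control diet for the 9 tested members, with SE bars, in all 24 libraries (diamonds) and within the 12 libraries with over (circles) and under (squares) 1000 counts of Xist, with dotted lines at the fold threshold of 0.5 in either direction. Sptlc2 and Cers5 lie above the threshold over all libraries, at 0.74 and 0.95. The squares lie to the right of the circles for every tested member except Cers2 and Smpd1.

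The order of the members by level per kilobase of exon was headed on both diets by Cers2, Degs1, Smpd1, and Sptlc1. On the high-fat diet these were at 78.0 ± 10.9, 24.4 ± 2.11, 17.3 ± 1.3, and 7.16 ± 0.557 CPM per kilobase (SD, n = 12). Sptlc2 followed at 4.1 ± 0.81, Cers6 at 2.93 ± 0.929, Sgms1 at 1.37 ± 0.296, Cers5 at 1.26 ± 0.519, and Cers4 at 0.311 ± 0.0995 CPM per kilobase. On the control diet Cers6, at 2.63 ± 1.28 CPM per kilobase, stood next to Sptlc2, at 2.45 ± 0.334, and was above it in 6 of 12 libraries. Sptlc2 was above Cers6 in 8 of 12 high-fat diet libraries, and Sgms1 above Cers5 in 7 of 12. The order within these pairs differed between the Xist sets. On the high-fat diet Sptlc2 was above Cers6 in every library with Xist under 1000 counts and below it in most of the others. Sgms1 was above Cers5 in every high-fat diet library with Xist over 1000 counts and below it in most of the others. Among control libraries Cers6 was above Sptlc2 in most with Xist over 1000 counts and below it in most of the others. Degs1 was above Smpd1 in 12 of 12 high-fat diet libraries and in 10 of 12 control libraries, and the order of every other pair of neighbours held in 12 of 12 libraries of its diet. Exon lengths are those of GENCODE M21 and need not be the ones used in counting. Sptlc2, Cers2, Cers4, Cers5, and Sgms1 overlap genes annotated on the opposite strand, and whether strand was used in counting the mouse libraries is not given in the sources used here, so reads of such partners cannot be told apart.

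Markers of other liver cells moved with the diet, and on the high-fat diet some also differed between the Xist sets, as did Sptlc2. All 8 markers of recruited macrophages rose, and their summed level was 328.0 to 1340.0 CPM on the high-fat diet and 95.5 to 321.0 CPM in controls. Of 8 markers of stellate cells and myofibroblasts 6 rose (321.0 to 790.0 against 124.0 to 370.0 CPM), and of 5 cholangiocyte markers 4 rose (31.6 to 881.0 against 27.3 to 131.0 CPM). The macrophage and cholangiocyte lists share Spp1. Its mean on the high-fat diet was 268.0 CPM, against 4.64 to 10.4 CPM for the other cholangiocyte markers, so the cholangiocyte sum is mostly Spp1. Of 8 hepatocyte markers 6 fell (39000 to 94400 against 85600 to 134000 CPM), and the lymphocyte and erythroid lists had 0 calls among 7 and 3 genes (3.57 to 10.4 against 2.65 to 11.5 CPM, and 134.0 to 3100 against 232.0 to 853.0 CPM). Of 5 resident macrophage markers 1 rose, and of 6 sinusoidal endothelial markers 1 rose and 1 fell, with overlapping sums on the diets (170.0 to 779.0 against 109.0 to 468.0 CPM, and 127.0 to 303.0 against 126.0 to 281.0 CPM). No marker was at 0 in every library.

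On the high-fat diet, the recruited macrophage sum was 328.0 to 568.0 CPM where Xist was over 1000 counts and 692.0 to 1340.0 CPM where it was under, and the stellate sum was 321.0 to 489.0 and 550.0 to 790.0 CPM, so that neither overlapped between the sets. Sptlc2 also separated them, but the share of all genes that do so was not counted. The cholangiocyte sum, mostly Spp1, was 31.6 to 176.0 and 258.0 to 881.0 CPM, and the hepatocyte sum 70500 to 94400 and 39000 to 49600 CPM, again without overlap. On the control diet all of these sums overlapped between the sets. Their control medians with Xist over and under 1000 counts were 155.0 and 108.0 CPM for recruited macrophages and 240.0 and 161.0 CPM for stellate cells. For cholangiocytes they were 40.6 and 41.8 CPM, and for hepatocytes 116000 and 93000 CPM. After the mean of each diet and set was subtracted, Sptlc2 correlated with the stellate sum (r = 0.63 over 24 libraries, 0.693 without the 3 that stood apart), the recruited macrophage sum (0.585, 0.741), and the hepatocyte sum (-0.203, -0.274). For Cers5 these values were 0.351 (0.573), 0.21 (0.322), and -0.0144 (0.244). The remaining sums also correlated positively with Sptlc2, namely cholangiocytes 0.387 (0.588), lymphocytes 0.383 (0.353), resident macrophages 0.319 (0.623), sinusoidal endothelial cells 0.254 (0.451), and erythroid cells 0.219 (0.466). With Cers5, in the same order, they were at 0.211 (0.36), -0.0045 (-0.126), -0.361 (-0.0171), -0.0929 (0.25), and 0.0916 (0.00185). High-fat diet replicate 9, the highest library for Cers4 and Cers5, also ranked 1 of 24 for the recruited macrophage and the cholangiocyte sums (1340.0 and 881.0 CPM), which share Spp1. It ranked 24 of 24 for the hepatocyte sum (39000 CPM). The part of these cell types in the changes of the members was not tested.

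Genes whose levels were most like those of a member were sought among those with a mean of at least 100 counts, again after subtracting the mean of each diet and set, as a description over 24 libraries that share their scaling. The 3 genes closest to Sptlc2 were Fgl2 (r = 0.885), Tgtp2 (0.839), and Tpm1 (0.835), with 0.886, 0.827, and 0.843 without the 3 libraries that stood apart. For Cers5 they were Cd24a (0.791), Cd9 (0.785), and Agtrap (0.769), and these fell to 0.585, 0.617, and 0.602 without those libraries. For Cers2, Echdc1 (0.886) and Adra1b (0.866) are given, which were at 0.733 and 0.511 without them. Cers6 lay closest to Tmem106b (0.886), Pdk1 (0.873), and Cyp2c39 (0.863), and Sptlc1 to Rpl7l1 (0.917), Emc2 (0.876), and Smu1 (0.874). For Cers4 the closest were Cdc42ep1 (0.789), Asb3 (0.769), and Itga3 (0.749), which were at 0.518, 0.703, and 0.537 without the 3 libraries. For Degs1 they were Irf9 (0.778), Zfp518a (0.745), and Rell1 (0.728). For Smpd1 they were Cyp2d22 (0.718), Usp2 (0.71), and Wbp2 (0.671), and for Sgms1 Slc35a5 (0.825), Zbtb1 (0.821), and Rab21 (0.799). Without the 3 libraries, in the same order of genes, r was 0.794, 0.768, and 0.795 for Cers6 and 0.871, 0.825, and 0.803 for Sptlc1. It was 0.696, 0.677, and 0.587 for Degs1, 0.664, 0.675, and 0.696 for Smpd1, and 0.773, 0.786, and 0.792 for Sgms1. Among the members themselves the pair most alike was Cers6 and Sgms1 (r = 0.667, or 0.62 without the 3 libraries), and over all 24 libraries the most opposed was Cers2 and Cers5 (-0.627, or -0.342). Without the 3 libraries the most opposed pair was Sptlc1 and Smpd1 (-0.541, or -0.451 over all 24).

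The other genes of the sphingolipid pathway, in 4 lists of 66 genes of which 61 were tested, were called higher more often than lower. In total 19 rose and 4 fell, beside 13.2% and 4.99% of all genes, with a median log2 fold change of 0.185. These lists were also chosen with earlier results of these data known and are described by counts only. Of the 11 other tested genes of de novo synthesis 2 rose and 1 fell. Kdsr, the reductase that follows SPT, was at 22.8 to 32.0 CPM on the high-fat diet and at 27.2 to 51.5 CPM in controls, and its log2 fold change of -0.31 ± 0.0924 (SE, edgeR, adjusted p = 0.00949) was within the fold threshold. Ormdl1, Ormdl2, and Ormdl3, which restrain SPT, had log2 fold changes of -0.39, -0.24, and -0.01, and Sptssa, a small activating subunit, of -0.34, none of them called (edgeR, adjusted p = 0.0849, 0.0885, 0.929, and 0.0499). Degs2, a desaturase and hydroxylase, rose by 2.19 ± 0.518 (SE, adjusted p = 0.00161 by edgeR) at 0.107 to 4.31 CPM against 0.0 to 0.646 CPM. Dbi, the acyl-CoA binding protein, fell by 0.585 ± 0.171 on the log2 scale (adjusted p = 0.00825 by edgeR). Cers1, Cers3, and Sptssb had 22, 12, and 8 counts over all 24 libraries and were not tested.

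Around sphingomyelin, 3 of 9 tested genes rose and 0 fell. Smpd3, the neutral sphingomyelinase of the plasma membrane, rose by 2.37 ± 0.426 on the log2 scale (SE, adjusted p = 0.000109 by edgeR), from 0.704 to 17.2 CPM on the control diet to 14.7 to 48.3 CPM on the high-fat diet, with 10 of 12 high-fat diet libraries above every control library. Smpdl3b, a sphingomyelinase-like enzyme of the cell surface, rose by 1.10 ± 0.235 (adjusted p = 0.000653 by edgeR).

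Of 19 tested genes of ceramide breakdown and sphingosine 1-phosphate, 5 rose and 2 fell. Cerk, ceramide kinase, was at 11.8 to 22.1 CPM on the high-fat diet and at 2.24 to 9.87 CPM in controls, without overlap (log2 fold change 1.36 ± 0.161, adjusted p = 1.07e-06 by edgeR). Sphk1, sphingosine kinase, rose by 2.19 ± 0.43, and S1pr2, a receptor of sphingosine 1-phosphate, by 1.04 ± 0.191. Apom, the plasma carrier of sphingosine 1-phosphate made by hepatocytes, was at 63.8 to 178.0 CPM on the high-fat diet against 126.0 to 396.0 CPM and fell by 1.205 ± 0.185 (adjusted p = 2.01e-05 by edgeR). S1pr5, another receptor, fell by 0.64 ± 0.18 (adjusted p = 0.00611 by edgeR).

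Of 22 tested genes of glycosphingolipids, 9 rose and 1 fell, with a median log2 fold change of 0.49. Those with the largest changes among called genes averaging 10 counts or more were A4galt, which makes globotriaosylceramide (1.97 ± 0.326), B4galt6, a lactosylceramide synthase (1.79 ± 0.231), Gal3st1, which makes sulfatide (1.72 ± 0.288), and Gltp, a glycolipid transfer protein (1.37 ± 0.202), with adjusted p from 4.94e-05 to 2.79e-06 by edgeR. B4galt6 did not overlap between the diets, at 4.48 to 12.9 against 0.611 to 3.92 CPM. St3gal5, which makes the ganglioside GM3, fell by 0.95 ± 0.273 on the log2 scale (adjusted p = 0.00741 by edgeR), at 85.9 to 431.0 CPM against 188.0 to 1070.0 CPM. Calls of falls in these lists were not stable, with 1 to 4 left when single libraries were omitted.

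The diet effect differed between the Xist sets at an adjusted p of 0.01 or less for 5 of the 61 tested genes of these lists, beside 4.06% of all genes. The log2 fold change with Xist over and under 1000 counts was 0.83 and 1.93 for Cerk, 0.94 and 2.66 for B4galt6, and 0.65 and 2.14 for Gltp (edgeR interaction, adjusted p = 0.00423, 0.00101, and 0.00137). The remaining genes, named after their values were seen, were Asah1, acid ceramidase (-0.07 and 0.93), and Sgpp1, a sphingosine 1-phosphate phosphatase (0.01 and -0.47). Degs2 was at 0.71 and 3.28, and this difference missed the threshold (edgeR, adjusted p = 0.0776). For Smpd3 the values were 2.57 and 2.29, with an interaction of 0.29 (edgeR, adjusted p = 0.819).

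**Figure D4:**
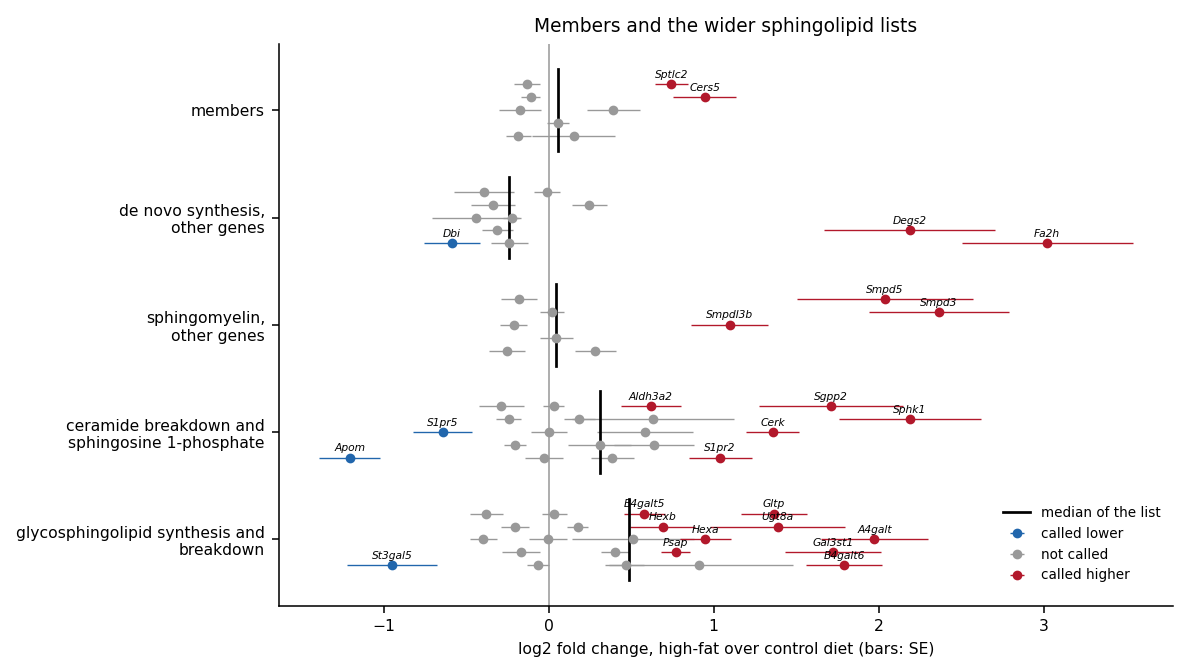
Log2 fold change of the high-fat over the control diet, with SE bars, for the 9 tested members and the 61 tested genes of the other sphingolipid lists, coloured by call and named where called, with a black line at the median of each list. The medians run from -0.24 for the other genes of de novo synthesis to 0.49 for glycosphingolipids, and the members lie at 0.06.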

How the data were processed

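RNA-Seq of mouse liver was analysed in 24 libraries, 12 per diet. Raw counts per Ensembl gene were deposited as a single table, with no normalization. The submitters' processing notes name bcl2fastq, STAR 2.7.3a, and the build mm10. The counting program and its annotation are not given in the sources used here. Gene symbols, positions, and exon lengths came from GENCODE M21 on the same build and were found for 51745 of 56205 gene IDs, and the 4460 others held 0.0723% of the counts. Start regions came from RefSeq and were found for all 10 members. In the gene lists, Cert1 is listed under the older symbol Col4a3bp.

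Counts were fitted with edgeR 4.0.16 in R 4.3.3 (TMM, quasi-likelihood test of diet, no covariate, Benjamini-Hochberg adjustment), after removing genes without at least 1 count in at least 12 libraries, which left 17913. The test was checked on simulated data. Calls required an adjusted p of 0.01 or less and a log2 fold change beyond 0.5 in either direction. Standard errors were obtained from the log2 fold change and the root of its F statistic, and intervals are 95% normal intervals from them. Ratios were log2 of counts plus 0.5 and were compared by two-sided permutation (100000 resamples), with exact enumeration where 6 libraries faced 6. The sets by Xist were fitted apart and as an interaction with diet. Depth was 14468418 to 22112552 counts per library. The alternatives were DESeq2 1.42.0, limma 3.58.1 (voom), other scalings, filters, and thresholds, a replicate block, the Xist set as covariate, and omission of libraries. Named were the 10 members, in each wider list up to 5 called genes with the largest change among those averaging 10 counts or more plus the SPT regulators and remaining synthases, up to 3 abundant genes per marker list, and for each member its 3 most alike genes, of which 1 is not reported here. The members and lists were chosen with earlier results of these data known.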

Additional observations from a re-analysis of the deposited data

Results flagged for a closer look

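The 9 tested members were searched for single libraries far from the rest of their diet and Xist set (Dixon's criterion, 6 libraries per group). Of 36 groups, 5 held such a library, where chance gives about 1 in 20, or 1.8 groups, and 4 of the 5 were in high-fat diet replicates 3 and 9. In replicate 3, Cers2 was at 205.0 CPM, below the other libraries of its set at 294.0 to 340.0 CPM, and Cers5 was at 4.9 CPM, above the others at 2.84 to 3.38 CPM. In replicate 9, Cers4 was at 7.57 CPM and Cers5 at 9.55 CPM, above the others at 3.23 to 3.82 and 4.24 to 5.8 CPM. Sptlc1 was at 26.9 CPM in high-fat diet replicate 1, above the others of its set at 22.4 to 23.9 CPM. Without high-fat diet replicates 3 and 9 and control diet replicate 10 together, Sptlc2 and Cers5 stayed called, at log2 fold changes of 0.70 and 0.72 (edgeR, adjusted p = 1.6e-05 and 0.00121).

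The effect of diet on Sptlc2 differed between the Xist sets by an interaction of -0.62 on the log2 scale (edgeR, adjusted p = 0.00408), as the difference of the set with Xist over 1000 counts minus the other. Its change was 0.42 and 1.05 in these sets, and the marker sums of recruited macrophages and stellate cells on the high-fat diet were also lower in the former. The part of those cells in this difference was not tested.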

How the results depend on the processing

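The calls of Sptlc2 and Cers5 as higher, and of 0 members as lower, held under every scaling, filter, and tool tried and with each library omitted in turn (2 higher and 0 lower each time), except that library totals alone added Cers4 (0.70, adjusted p = 0.00481) and that 0 members were called higher within the libraries with Xist over 1000 counts (Sptlc2 0.42, Cers5 0.38) or at a log2 fold change over 1. Signs of uncalled members turned with library totals alone for Sptlc1 (0.125), Cers2 (0.155), Smpd1 (0.177), and Sgms1 (0.087), where the median of all genes moved from -0.03 to 0.26, within the libraries with Xist over 1000 counts for Cers4 (-0.007), Degs1 (-0.062), and Smpd1 (0.054), and without the 3 libraries that stood apart for Degs1 (-0.006). With library totals alone 94.4% of all calls were higher, against 72.6% with TMM.

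Of the ratios, Cers5 to Cers2 passed its test except with Xist over 1000 counts (0.39, exact permutation p = 0.0519), and Sptlc2 to Sptlc1 passed in every setting, from 0.85 to 0.943 when single libraries were omitted. Sptlc3 to Sptlc2 missed its test but passed with a pseudocount of 5 (-0.931), with Xist over 1000 counts (-0.381), and without high-fat diet replicate 8 (-0.975, the lowest of a range up to -0.444), and with Sptlc3 at 0 in most libraries it follows Sptlc2 and the depth. Sgms1 to Smpd1 was -0.252 (exact permutation p = 0.0281) with Xist over 1000 counts and 0.118 with Xist under. The wider lists had 10 genes higher with at least 10 counts in every library and 6 with Xist over 1000 counts, against 19. They had 1 gene lower, against 4, with library totals alone, with Xist over 1000 counts, or at a log2 fold change over 1, and 12 when an adjusted p up to 0.05 was enough whatever the fold. Omission of single libraries left 1 to 4 genes lower, with 1 when any of high-fat diet replicates 6 to 12 was omitted and 2 without control diet replicate 5 or 12. The cause of these changes was not tested.

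Replicate numbers run from 1 to 12 in both diets, but deviations of same-numbered libraries correlated from -0.0961 to 0.578 and only 2 of 12 libraries correlated best with their own number, so the numbers were not taken as pairs. With the replicate block 2 members were called higher and 0 lower (Sptlc2 0.73, Cers5 0.90), 16 and 3 wider genes were called, and Sptlc2 to Sptlc1 differed by 0.901 (p = 0.000488, exact sign-flip permutation). Members with few counts, Cers4 and Cers5, carry the largest counting error, and Sptlc3 is below what this depth can show.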
